A study of Mus musculus with 12 samples.

Results

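The chemokine genes of inguinal white adipose tissue (iWAT) were examined in 12 mice. These 39 genes were all the rows, among 23420 in the count table, whose symbol began with Ccl or Cxcl followed by a number (with at most 1 letter after it for Ccl), or was Cx3cl1, Xcl1 or Pf4. Chemokines are small secreted proteins that guide migrating cells, mostly leukocytes, through G protein-coupled receptors named after the same families. Some are made steadily by stromal cells and position lymphocytes in lymphoid tissue, whereas others are induced in macrophages, adipocytes and other cells during inflammation and draw in monocytes, neutrophils or T cells. In adipose tissue they are best known for the recruitment of monocytes that become macrophages.

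RNA was sequenced from male C57BL/6 mice at 10 weeks of age, 3 in each of 4 groups, to compare a thermoneutral state (TN, 30 °C for 1 week) with cold (4 to 6 °C for 3 days) in 2 genotypes. All mice carried HIF2a loxP/loxP alleles. WT mice had no Cre, and HIF2α AKO mice also had Adipoq-Cre, which is driven by an adipocyte promoter, so Cre and the deletion cannot be told apart, and cells other than adipocytes in the tissue keep the gene. Between 22368316 and 35204631 reads were counted on genes per mouse. Epas1, the gene for HIF2α, was counted at 373, 278 and 430 CPM (counts scaled to the library size with TMM factors) in TN WT, at 289, 394 and 360 CPM in TN AKO, at 576, 562 and 743 CPM in cold WT, and at 986, 743 and 749 CPM in cold AKO. Counts of the whole gene were therefore not lower in the libraries labelled AKO, and genotypes are given as labelled throughout. Such counts cannot show whether the part between the loxP sites was lost. By RT-qPCR, the study reported lower Hif2a (Epas1) mRNA in adipose tissue of its knockout mice. Ucp1, the thermogenic uncoupling protein, was at 0.204 to 3.85 CPM at TN and at 2170 to 5900 CPM in cold, and the thermogenic adipocyte markers summed to between 28.4 and 90.6 CPM at TN and between 3350 and 8580 CPM in cold.

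Some libraries stood apart from the rest of their group. Skeletal muscle markers summed to 1640 CPM in TN AKO replicate 2 and to 1380 CPM in cold AKO replicate 1, against 19.1 to 104 CPM in the other 10 libraries. Epithelial markers summed to 200 CPM and mesothelial markers to 65.8 CPM in TN WT replicate 3, against at most 10.3 and 7.64 CPM elsewhere. B cell markers were present in every library (560 to 1910 CPM), as were T cell markers (309 to 737 CPM) and macrophage markers (1520 to 3120 CPM). In whole tissue, fewer cells of a type and less RNA per cell cannot be told apart.

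Of the 39 chemokine genes, 30 had enough counts to be tested, among 15306 genes in all. The other 9 were too low for a test. Ccl21a, Ccl21b and Ccl21c, which encode ligands of CCR7, and Ccl27b, a copy of Ccl27a, were listed at 0 in all 12 libraries. Their sequences are shared with other genes, since 71.6% of the 50-base windows of Ccl21a, 100% of those of Ccl21b and 98.1% of those of Ccl27b also occurred in other annotated genes, so their absence from the counts is uncertain, and Ccl21c had no place on a chromosome of the annotation used. Ccl1, Ccl26, Cxcl2 and Cxcl3 were at or below 0.47 CPM in every mouse. Cxcl17, a chemokine of mucosal epithelium, was at 2.15 CPM in TN WT replicate 3, the library with the high epithelial sum, and at or below 0.171 CPM in the other 11. The row Il8, an older symbol of Cxcl15 that lies outside the symbol rule, was at 2.59 CPM in that same library and at 0 in the other 11.

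Together the 39 genes gave 994 to 1360 CPM per mouse, or 0.0838 to 0.163% of all counts on genes. Per kilobase of exon, Ccl8 was the most abundant (160 ± 58.5 CPM per kb, SD, n = 12), followed by Ccl5 (99.6 ± 40.1), Ccl19 (93.2 ± 27.6), Cxcl13 (89.5 ± 29.7) and Cxcl12 (51.7 ± 7.19). The neighbours in this order lay within 1 SD of each other, except Ccl5 below Ccl8 and Cxcl12 below Cxcl13. Levels then fell off over several orders of magnitude, to 0.0903 CPM per kb for Ccl28, the lowest of the tested members. The plot of levels per kilobase shows this range. Cxcl12, the CXCR4 ligand that retains haematopoietic and lymphoid cells in their niches, had the steadiest counts of the 5 most abundant genes. It was at 430, 509 and 303 CPM in TN WT, 492, 401 and 378 CPM in TN AKO, 345, 434 and 458 CPM in cold WT, and 455, 440 and 434 CPM in cold AKO, and every pair of groups overlapped.

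**Figure D1:**
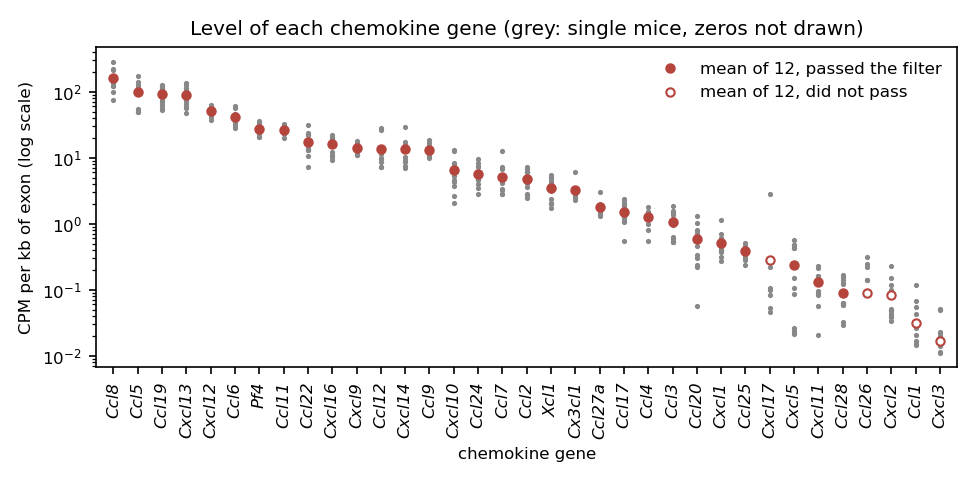
Level of the 35 chemokine genes with any count, in CPM per kilobase of exon on a log axis, with the mean of 12 mice as red circles (open where the gene did not pass the filter on low counts) and single mice as grey points. Ccl8, at a mean of 160, was highest, and 5 of the 9 genes that did not pass the filter are among the lowest.

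The other 3 abundant genes besides Ccl8 and Cxcl12 are best known from lymphoid tissue or lymphocytes. Ccl5, a product of T and NK cells, was at 117, 122 and 165 CPM in TN WT, 104, 53.2 and 108 CPM in TN AKO, 90.8, 108 and 47.6 CPM in cold WT, and 47.2, 51.0 and 133 CPM in cold AKO. Ccl19, a ligand of CCR7 that brings naive T cells and dendritic cells into lymph nodes, was at 89.3, 107 and 106 CPM in TN WT, 98.1, 54.5 and 94.4 CPM in TN AKO, 64.9, 89.0 and 49.5 CPM in cold WT, and 46.2, 61.4 and 109 CPM in cold AKO. Cxcl13, the CXCR5 ligand that forms B cell follicles, was at 109, 146 and 83.3 CPM in TN WT, 159, 122 and 99.6 CPM in TN AKO, 120, 74.9 and 64.8 CPM in cold WT, and 67.2, 133 and 55.2 CPM in cold AKO. The cold WT mice lay below all TN WT mice for Ccl5 and Ccl19 but not for Cxcl13. With all 12 libraries fitted, neither Ccl5 nor Ccl19 nor Cxcl13 passed the test in any comparison. Without cold AKO replicate 2, Cxcl13 was called between cold and TN in mice labelled AKO. Markers of the high endothelial venules of lymph nodes (Glycam1, Chst4 and Madcam1), none of them at 0 in all libraries, summed to 102 to 182 CPM in TN WT, 84.2 to 146 CPM in TN AKO, 121 to 155 CPM in cold WT and 73.4 to 109 CPM in cold AKO, with 0 of 3 called in any comparison by edgeR, and their part in the levels of Ccl19 and Cxcl13 was not tested. Of the 50-base windows of Ccl19, 52.0% also occurred in annotated pseudogenes or unnamed gene models, so its level is uncertain.

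Cold against TN was compared first, in each genotype. Cxcl5 was called lower in cold in both genotypes (0.0828 CPM against 0.822 CPM in WT mice). It had 1 to 5 reads in each cold library and enough counts for a test only through the TN groups, where it was high. Xcl1 was called lower and Ccl25 higher in WT mice, and Ccl8 was called lower in mice labelled AKO. Xcl1, Ccl25 and Ccl8 each had a fitted value in the same direction in the other genotype, and no interaction was called. In mice labelled AKO the calls of Cxcl5 and Ccl8 were lost under 3 of 19 and 10 of 21 alternative fits. In WT that of Ccl25 was lost under 8 of 21. In WT mice, 1 of the 30 tested chemokine genes was called higher in cold (edgeR's quasi-likelihood test, Benjamini-Hochberg adjusted p under 0.05), while 15.6% of all tested genes were. In the same mice 2 were called lower, while 5.68% of all tested genes were. The fitted value was lower in cold for 25 of the 30 and higher for 5, and their median log2 fold change was -0.43, against -0.03 over all tested genes. Adipocyte markers moved the other way, with 7 of 7 fitted higher in cold WT (3 called, median 0.96) and sums of 4370 to 10700 CPM at TN and 14400 to 27800 CPM in cold, and fibroblast markers were fitted lower for 8 of 8 (0 called, median -0.39, sums of 2060 to 2400 and 1840 to 1880 CPM). In mice labelled AKO, 6 of 7 adipocyte markers were fitted higher (1 called, median 0.68, sums of 6500 to 11700 and 17400 to 21600 CPM) and 8 of 8 fibroblast markers lower (3 called, median -0.41, sums of 2070 to 2670 and 1720 to 1850 CPM). Of all tested genes, 15.6% were called higher and 11.5% lower in cold in those mice. No marker of either list was at 0 in all libraries, and their part in the chemokine values was not tested. In 10 of the 30 chemokine genes every cold WT mouse lay below every TN WT mouse, a pattern that 19.3% of all tested genes showed. Besides Cxcl5 and Xcl1, these were Ccl2, Ccl4, Ccl5, Ccl7, Ccl11, Ccl19, Cxcl1 and Cxcl16.

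In the mice labelled AKO the family was evenly split, with 15 fitted values higher and 15 lower in cold, and a median log2 fold change of 0.01 against -0.05 over all tested genes. None was called higher by edgeR, while 15.6% of all tested genes were, and 3 had an unadjusted p under 0.05 in that direction (Ccl28, Ccl12 and Ccl17), while 21.3% of all tested genes did. DESeq2 called Ccl28 higher, although its groups overlapped, with 4, 9 and 4 reads in TN AKO and 17, 7 and 15 reads in cold AKO. Ccl28 had too few counts for a test when the mice labelled AKO were fitted alone. By edgeR 2 members were called lower, while 11.5% of all tested genes were. In 3 members (Cxcl5, Xcl1 and Ccl8) every cold mouse lay below every TN mouse, a pattern shown by 25.6% of all tested genes. The interaction of temperature and genotype, which tests whether the effect of cold differed between the labelled genotypes, was called for 0 members, 0% of all tested genes, by edgeR, and for 0 by DESeq2. At an unadjusted p under 0.05, 3 members differed, while 2.14% of all tested genes did, namely Cxcl1 (log2 difference 1.44, SE 0.548), Ccl6 (-0.72, SE 0.296) and Ccl9 (-0.57, SE 0.244), each with an adjusted p of 1 by edgeR.

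**Figure D2:**
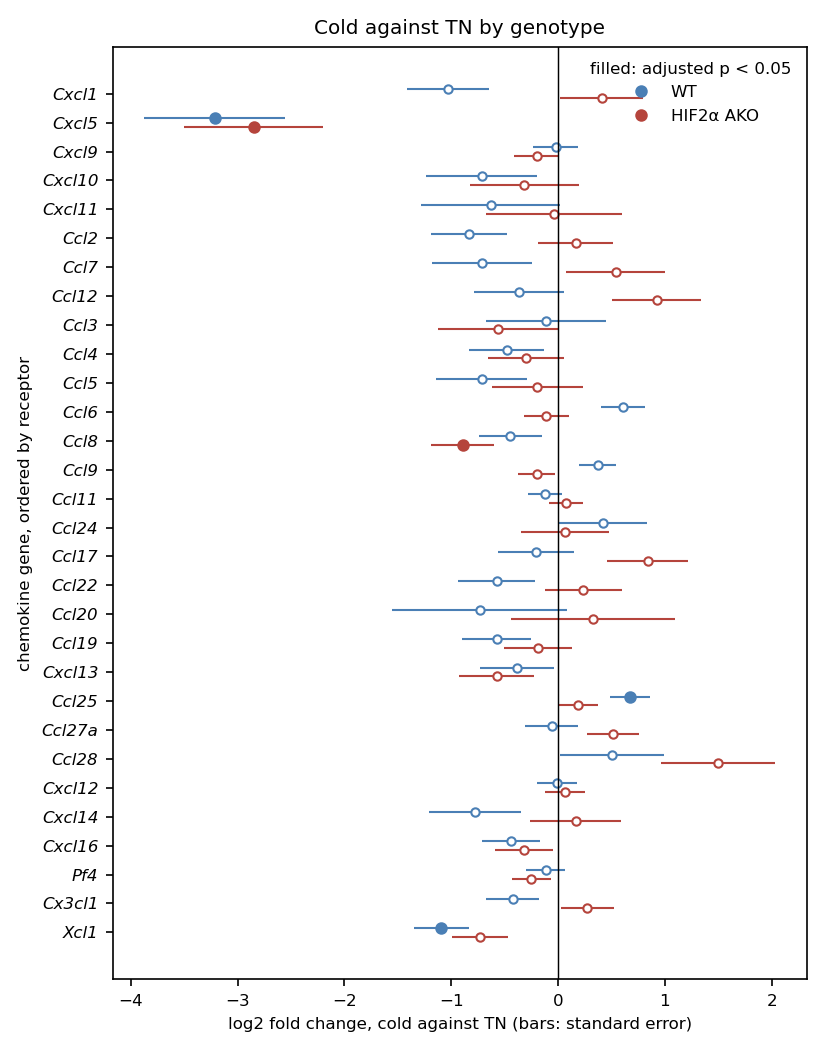
Log2 fold change of cold against TN for the 30 tested chemokine genes, ordered by receptor, in WT (blue) and in mice labelled AKO (red), with bars for the standard error and filled points for an adjusted p under 0.05. Most blue points (25 of 30) lie left of 0 and the red points are split 15 to 15, with Cxcl5 far to the left in both.

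Cxcl5 belongs to the CXC chemokines with a Glu-Leu-Arg motif, which bind CXCR2 and attract neutrophils. It was at 0.789, 0.788 and 0.887 CPM in TN WT and at 0.0447, 0.0427 and 0.161 CPM in cold WT. In mice labelled AKO it was at 0.896, 1.04 and 0.283 CPM at TN and at 0.0484, 0.201 and 0.0401 CPM in cold. All 6 cold mice lay below all 6 TN mice. The cold values rested on 1 to 5 reads per library, or 6 reads in cold WT against 80 in TN WT and 7 reads in cold AKO against 64 in TN AKO. With fewer than 10 reads in every cold library, Cxcl5 passed the filter on low counts only through the TN groups, where it was high, and it dropped out when the mice labelled AKO were fitted alone. The ratio of TN to cold was 9.63 in WT (exact 95% Poisson interval 4.24 to 27) and 7.51 in mice labelled AKO (3.44 to 19.4), where the intervals cover counting error only. Cold against TN gave a log2 fold change of -3.21 (SE 0.66) in WT, with an adjusted p of 0.00782, and -2.85 (SE 0.651) in mice labelled AKO, with an adjusted p of 0.0109 by edgeR's quasi-likelihood test. The call in mice labelled AKO was lost without cold AKO replicate 1 (log2 fold change -2.57, adjusted p = 0.0532) and without both muscle-rich libraries (-2.24, adjusted p = 0.0972). Of the neutrophil markers, 7 of the 7 counted had lower fitted values in cold in each genotype, with sums of 95.5 to 207 CPM in TN WT, 64.5 to 112 CPM in cold WT, 126 to 248 CPM in TN AKO and 58.9 to 128 CPM in cold AKO, and no marker was at 0 in all libraries. Their part in the result was not tested.

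The other member of that class to pass the filter was Cxcl1, a chemokine induced early in inflammation. It was at 0.866, 1.13 and 2.12 CPM in TN WT, 0.740, 0.816 and 0.707 CPM in TN AKO, 0.761, 0.513 and 0.724 CPM in cold WT, and 0.581, 1.09 and 1.32 CPM in cold AKO. TN WT was above cold WT and above TN AKO with no overlap, and its highest mouse was the library with the high epithelial sum. Cold against TN gave a log2 fold change of -1.03 (SE 0.387) in WT and 0.41 (SE 0.387) in mice labelled AKO, with edgeR adjusted p of 0.0779 and 0.441. Without TN WT replicate 3 the interaction was 0.98 on the log2 scale and its unadjusted p was above 0.05.

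Xcl1, the lymphotactin of T and NK cells that attracts XCR1-bearing dendritic cells, was at 2.83, 2.54 and 2.63 CPM in TN WT and at 1.03, 1.62 and 1.09 CPM in cold WT. In mice labelled AKO it was at 2.3, 2.07 and 2.19 CPM at TN and at 0.920, 1.25 and 1.76 CPM in cold. All cold mice lay below all TN mice, and the TN AKO mice lay below the TN WT mice. The log2 fold change of cold against TN was -1.09 (SE 0.257) in WT, with an adjusted p of 0.0143 by edgeR, and -0.73 (SE 0.258) in mice labelled AKO, with an adjusted p of 0.0558. Without cold WT replicate 3 the adjusted p in WT was 0.0609. Of the T cell markers, 8 of 8 had lower fitted values in cold in each genotype (median log2 fold change -0.58 in WT and -0.53 in mice labelled AKO), none was at 0 in all libraries, and their sums were 647 to 737 CPM in TN WT, 382 to 609 CPM in cold WT, 431 to 708 CPM in TN AKO and 309 to 591 CPM in cold AKO. Their part in the lower Xcl1 was not tested. Of the 50-base windows of Xcl1, 10.8% lay in an overlapping gene model, Gm20743. Xcr1, the receptor, had log2 fold changes of -0.58 (adjusted p = 0.164) and -0.40 (adjusted p = 0.314) by edgeR.

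Ccl25, the CCR9 ligand of thymus and small intestine, was at 2.24, 1.75 and 2.08 CPM in TN WT and at 3.22, 3.08 and 3.42 CPM in cold WT. Mice labelled AKO had Ccl25 at 2.42, 2.83 and 3.32 CPM at TN and at 3.83, 2.85 and 3.08 CPM in cold. The TN WT mice were the lowest, below every mouse of the other groups. The log2 fold change of cold against TN was 0.68 (SE 0.19) in WT, with an adjusted p of 0.0295, and 0.19 (SE 0.188) in mice labelled AKO, with an adjusted p of 0.47 by edgeR. The interaction was -0.49 (SE 0.267). The call in WT was lost without either of TN WT replicates 1 and 2 or any of the cold WT replicates, and its adjusted p ranged from 0.00882 to 0.122 over the alternatives. An exon of Ccl25 overlaps Elavl1, which differed by 0.00 on the log2 scale between cold WT and TN WT (adjusted p = 0.983 by edgeR).

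Ccl8 draws monocytes and T cells and is made by tissue macrophages in the mouse. It was at 147, 114 and 83.8 CPM in TN AKO and at 51.0, 63.2 and 71.8 CPM in cold AKO. In WT it was at 87.7, 108 and 63.5 CPM at TN and at 70.1, 82.1 and 38.2 CPM in cold. The groups did not overlap in mice labelled AKO and overlapped in WT. The log2 fold change of cold against TN was -0.89 (SE 0.296) in mice labelled AKO, with an adjusted p of 0.0458, and -0.45 (SE 0.294) in WT, with an adjusted p of 0.274 by edgeR, and the interaction was -0.45 (SE 0.415). The call was lost under 10 of 21 alternatives, among them the omission of TN WT replicate 1, TN AKO replicate 1 or 2, cold WT replicate 1 or any cold AKO replicate, with an adjusted p between 0.0171 and 0.194. Macrophage markers moved the same way in mice labelled AKO, where 12 of 13 had lower fitted values in cold. Their median log2 fold change was -0.67, against -0.05 over all tested genes. Of these markers 3 (C1qa, C1qc and Mrc1) were called lower, while 11.5% of all tested genes were. The marker sums there were 2910 to 3110 CPM at TN and 1700 to 1940 CPM in cold. In WT, 8 of 13 were fitted lower, with sums of 1800 to 3120 CPM at TN and 1520 to 3010 CPM in cold, no marker was at 0 in all libraries, and their part in the Ccl8 result was not tested.

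**Figure D3:**
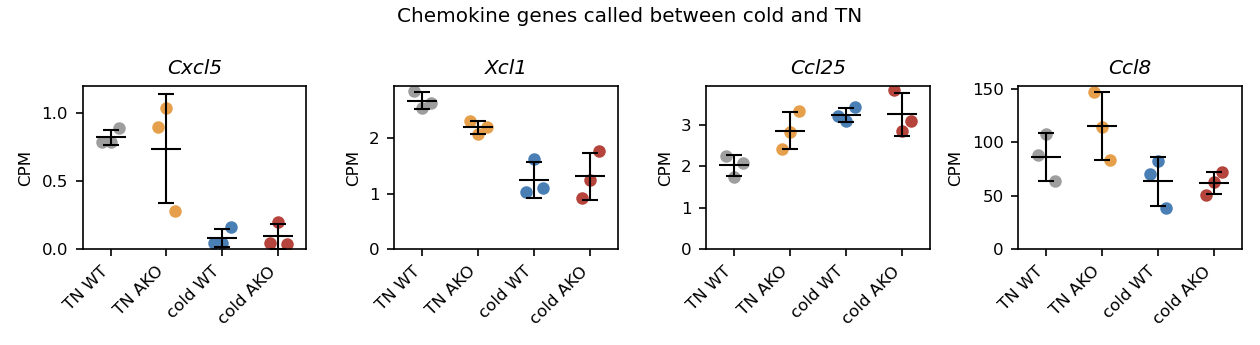
CPM per mouse (points), with the group mean and SD (bars, n = 3), of the 4 chemokine genes called between cold and TN in either genotype. Cxcl5 was below 0.21 CPM in all 6 cold mice and above 0.28 in all 6 TN mice, Xcl1 was lower in all cold mice, Ccl25 was lowest in TN WT, and Ccl8 was highest in TN AKO.

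The promoters of Xcl1 and Ccl8, which were called between temperatures, are shown as the 250 bases before the start of transcription in RefSeq on GRCm38.p6. An entry was found for 27 of the 39 members (33 promoters), and not for Cxcl5, Ccl2 or Ccl7. Each was searched on both strands for an NF-kB site, the core of the interferon-stimulated response element (GAAA, any 2 bases, GAAA), the hypoxia response element core (ACGTG or GCGTG) and the cAMP response element core (TGACG). The windows of Xcl1 and Ccl8 held none of these letters and are printed without capitals, and 1 of the 2 windows of Ccl25 held a hypoxia response element core.
Xcl1, chr1:164935523-164935772, minus strand: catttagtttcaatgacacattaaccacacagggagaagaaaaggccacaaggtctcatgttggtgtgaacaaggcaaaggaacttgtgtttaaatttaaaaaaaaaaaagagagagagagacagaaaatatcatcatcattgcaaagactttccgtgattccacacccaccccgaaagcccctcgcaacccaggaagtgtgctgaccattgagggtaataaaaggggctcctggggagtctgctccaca
Ccl8, chr11:82114935-82115184, plus strand: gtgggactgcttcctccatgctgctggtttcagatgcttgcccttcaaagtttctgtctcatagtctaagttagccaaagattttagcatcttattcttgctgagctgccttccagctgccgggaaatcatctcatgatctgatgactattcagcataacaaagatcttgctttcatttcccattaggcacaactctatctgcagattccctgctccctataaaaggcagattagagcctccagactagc

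NF-kB sites were found in 7 of the 33 promoters (21.2%, against 7.25% of 32851 RefSeq promoters), those of Ccl1, Ccl9, Ccl20, Cxcl1, Cxcl2, Cxcl3 and Cxcl10. The interferon-stimulated core was found in 9.09% of them against 2.98% of all promoters, in Ccl19, Cxcl10 and Cxcl14. The hypoxia response element core was found in 48.5% against 38.6% and the cAMP response element core in 21.2% against 17.8%. These are matches of letters, and Ccl25, Ccl27a and Ccl27b have more than 1 promoter. Cxcl10, an interferon-induced ligand of CXCR3, was the only member with matches to both of the first 2 motifs. In its promoter below, the capitals mark, in order, a hypoxia response element core, the interferon-stimulated core and 2 stretches of NF-kB matches.
Cxcl10, chr5:92348890-92349139, minus strand: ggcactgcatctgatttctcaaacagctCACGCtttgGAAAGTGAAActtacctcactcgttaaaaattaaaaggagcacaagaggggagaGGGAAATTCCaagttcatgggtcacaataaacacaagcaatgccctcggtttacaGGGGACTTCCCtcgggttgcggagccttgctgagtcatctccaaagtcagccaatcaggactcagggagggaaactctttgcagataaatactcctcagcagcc

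Genotype was compared next. In cold, no chemokine gene was called between mice labelled AKO and WT by edgeR, DESeq2 or limma voom, and 0.00653% of all tested genes were called by edgeR. The fitted value was higher in mice labelled AKO for 16 of 30 and lower for 14 (12 with RLE size factors in place of TMM), with a median log2 fold change of 0.03 against -0.02 over all tested genes. By edgeR, an unadjusted p under 0.05 was reached by 4 members, Ccl12 and Ccl2 higher and Ccl9 and Ccl6 lower, while 2.95% of all tested genes reached it. The groups did not overlap for 1 member, Ccl9, whereas 7.53% of all tested genes did not overlap. The adjusted p was 1 for every member.

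The ligands of CCR2, the receptor by which monocytes leave the bone marrow, are Ccl2 (MCP-1), Ccl7 (MCP-3) and Ccl12 (MCP-5), which lie next to Ccl11 and Ccl8 on chromosome 11, within chr11:82035571-82116799 of GRCm38. Ccl2 was at 3.13, 4.70 and 2.78 CPM in cold WT and at 3.2, 8.28 and 6.85 CPM in cold AKO. Ccl7 was at 2.73, 3.29 and 2.25 CPM in cold WT and at 2.23, 10.0 and 4.29 CPM in cold AKO. Ccl12 was at 6.98, 5.08 and 3.86 CPM in cold WT and at 3.92, 14.4 and 15.4 CPM in cold AKO. For each of them cold AKO replicates 2 and 3 lay above all cold WT mice and replicate 1, the library rich in muscle transcripts, lay within or below the cold WT range. Cold AKO minus cold WT was, on the log2 scale, 1.08 (SE 0.421) for Ccl12, 0.79 (SE 0.358) for Ccl2 and 1.00 (SE 0.471) for Ccl7. At TN the 3 genes differed by -0.21, -0.20 and -0.25 between the labelled genotypes, in the same order, and their groups overlapped.

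Without cold AKO replicate 1, the log2 fold change in cold was 1.49 for Ccl12 and 1.10 for Ccl2. Without replicate 2 it was 0.87 for Ccl12 and 0.51 for Ccl2, and without replicate 3 it was 0.79 and 0.70, with an unadjusted p above 0.05 in each. Over all alternatives the edgeR, DESeq2 or voom adjusted p of either gene was never under 0.628. The Ccl2 difference rested on 6.11 ± 2.62 CPM in cold AKO against 3.54 ± 1.02 CPM in cold WT (SD, n = 3), with an SD in cold AKO as large as the difference. In WT, Ccl2 was at 5.07, 6.85 and 6.99 CPM at TN, above all cold WT mice, with a log2 fold change of cold against TN of -0.83 (SE 0.356) and an edgeR adjusted p of 0.11, or 0.0365 without the 2 muscle-rich libraries, where Ccl2 was called, and 0.0645 without these and TN WT replicate 3. Ccl12 was at 6.09, 6.75 and 7.71 CPM in TN WT and at 4.71, 7.69 and 5.34 CPM in TN AKO. Between cold and TN, Ccl12 differed by 0.92 (SE 0.417) in mice labelled AKO, with an adjusted p of 0.115, and it was the 1 member called in that comparison without cold AKO replicate 1 or without both muscle-rich libraries. The other members of this stretch, Ccl11 and Ccl8, had log2 fold changes of 0.16 and -0.03 between the labelled genotypes in cold, and the 2 other tested genes within 100 kb of the cluster had 0.26 and -0.01.

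Ccl6 and Ccl9 are macrophage and myeloid ligands of CCR1 and lie beside each other in another cluster on chromosome 11, with Ccl5, Ccl3 and Ccl4, at chr11:83525778-83664683. Ccl6 was at 109, 102 and 74.3 CPM in cold WT and at 79.8, 63.4 and 58.6 CPM in cold AKO. Ccl9 was at 57.2, 51.1 and 38.5 CPM in cold WT and at 37.4, 36.2 and 30.1 CPM in cold AKO. Every cold AKO mouse was below every cold WT mouse for Ccl9, and the groups overlapped for Ccl6. Both differed by -0.50 on the log2 scale (SE 0.173 for Ccl9 and 0.209 for Ccl6).

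At TN, Ccl6 was at 82.6, 54.6 and 50 CPM in WT and at 73.3, 81.6 and 62.8 CPM in mice labelled AKO, and Ccl9 was at 45.9, 35.4 and 32.1 CPM in WT and at 40.1, 44.2 and 34.5 CPM in mice labelled AKO, with overlap in both. Cold WT was thus the group with the highest mean of both genes. Macrophage markers had lower fitted values in cold mice labelled AKO than in cold WT for 13 of 13 (median log2 fold change -0.39), with sums of 1700 to 1940 CPM against 1520 to 3010 CPM, and their part in the Ccl6 and Ccl9 values was not tested. The 6 other tested genes within 100 kb of the cluster differed by -0.53 to -0.06, with a median of -0.22. Only Wfdc17, at -0.53 (SE 0.37), was as low as Ccl6 and Ccl9, and 0 of the 6 had an unadjusted p under 0.05 by edgeR. The other 3 members of the cluster, Ccl5, Ccl3 and Ccl4, had log2 fold changes of -0.09, -0.10 and -0.11. The promoter of Ccl9 held an NF-kB match, shown here in capitals, 35 bases before its start.
Ccl9, chr11:83578637-83578886, minus strand: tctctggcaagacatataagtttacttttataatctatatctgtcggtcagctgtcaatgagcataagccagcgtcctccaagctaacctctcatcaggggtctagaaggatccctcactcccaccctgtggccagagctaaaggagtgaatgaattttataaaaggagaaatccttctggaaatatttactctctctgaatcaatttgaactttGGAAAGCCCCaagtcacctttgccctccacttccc

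**Figure D4:**
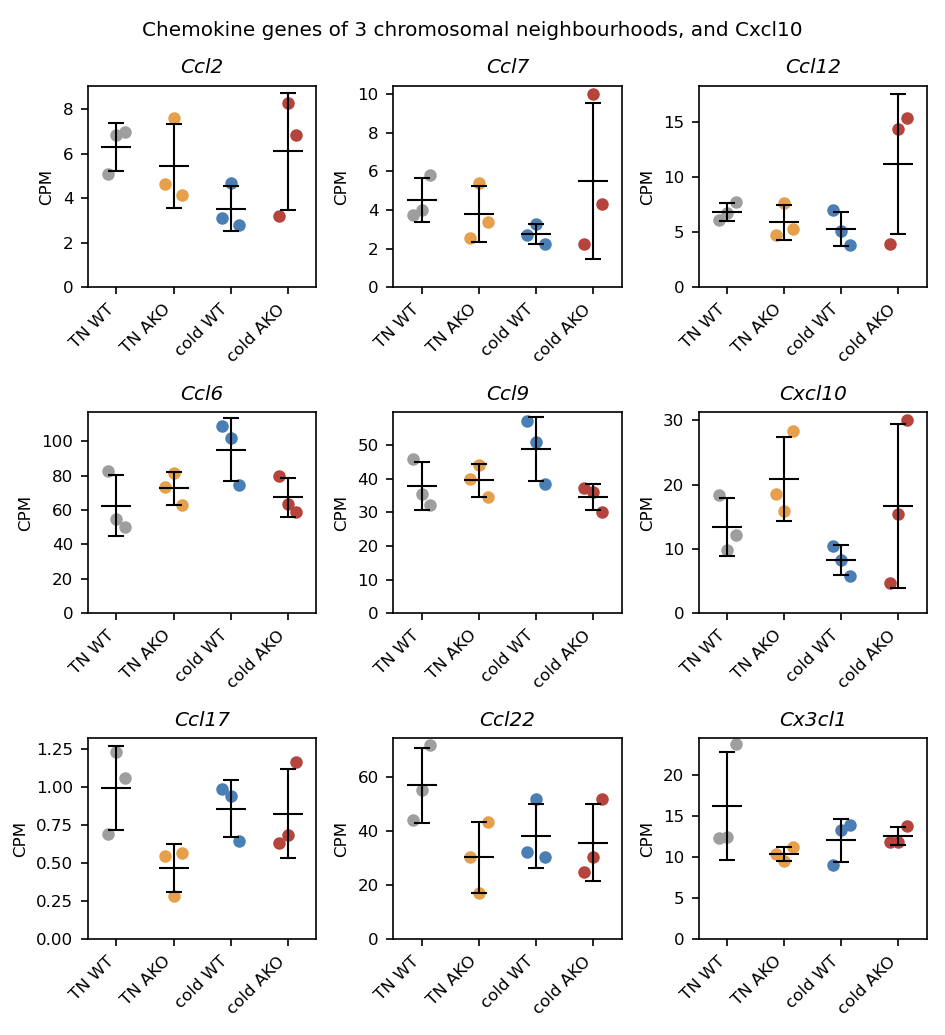
CPM per mouse (points), with the group mean and SD (bars, n = 3), of chemokine genes from 3 chromosomal neighbourhoods and of Cxcl10. In cold AKO, Ccl2, Ccl7 and Ccl12 were high in 2 of 3 mice (for Ccl12, 14.4 and 15.4 CPM against 3.92 CPM), Ccl6 and Ccl9 were highest in cold WT, and Ccl17, Ccl22 and Cx3cl1 were lowest in TN AKO by their means.

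The genes for ligands of CXCR3, the receptor of activated T cells, were Cxcl9, Cxcl10 and Cxcl11. The annotation used lists Cxcl11 as a polymorphic pseudogene, so whether these mice make a working protein from it cannot be told from counts. Cxcl10 was at 10.5, 8.33 and 5.87 CPM in cold WT and at 4.65, 15.5 and 30.0 CPM in cold AKO, so that the mice labelled AKO held both the lowest and the highest value. Its log2 fold change was 1.03 (SE 0.524), and its exons overlap Art3 over 3.59% of its 50-base windows. Cxcl9 differed by -0.06 (SE 0.21), at 33.2 to 55.1 CPM over the 6 cold mice. Cxcl11, at 0.0779 to 0.879 CPM over the 12 mice, passed no test, and 40.4% of its windows occurred in other gene models.

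At TN, again no chemokine gene was called between mice labelled AKO and WT by edgeR, DESeq2 or limma voom, and 0.00653% of all tested genes were called by edgeR. The adjusted p was 0.999 for every member. The fitted value was lower in mice labelled AKO for 19 of 30, with a median log2 fold change of -0.17 against 0.01 over all tested genes. By edgeR, an unadjusted p under 0.05 was reached by Ccl17, Cx3cl1, Ccl22 and Cxcl1, which were lower, and by Ccl25, which was higher, 5 of 30 members, while 2.91% of all tested genes reached it. The groups did not overlap for 9 members (8 lower and 1 higher), and for 7.69% of all tested genes.

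Ccl22 and Ccl17, the ligands of CCR4 that attract regulatory and type 2 T cells and are made by dendritic cells and macrophages, lie on either side of Cx3cl1 within 66.4 kb, at chr8:94745590-94812036. Cx3cl1 encodes fractalkine, a membrane-bound ligand of CX3CR1 on monocytes. Ccl22 was at 44.0, 55.2 and 71.8 CPM in TN WT and at 30.4, 17.1 and 43.6 CPM in TN AKO. Ccl17 was at 0.688, 1.23 and 1.06 CPM in TN WT and at 0.545, 0.283 and 0.565 CPM in TN AKO. Cx3cl1 was at 12.4, 12.5 and 23.8 CPM in TN WT and at 10.4, 9.51 and 11.2 CPM in TN AKO. Every TN AKO mouse lay below every TN WT mouse for each of the 3 genes, although the nearest values of Ccl22 were 43.6 and 44.0 CPM. The log2 fold change was -1.09 (SE 0.371) for Ccl17, -0.65 (SE 0.248) for Cx3cl1 and -0.91 (SE 0.362) for Ccl22. The 8 other tested genes within 100 kb of the 3 differed by -0.19 to 0.24, and 1 of them, Rspry1 (0.18), had an unadjusted p under 0.05.

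The highest TN WT value of Cx3cl1 and Ccl22 was in replicate 3, the library with the high epithelial and mesothelial sums, and the lowest TN AKO value of all 3 genes was in replicate 2, a library rich in muscle transcripts. Without TN WT replicate 3, the log2 fold change was -0.26 for Cx3cl1, -0.71 for Ccl22 and -1.04 for Ccl17, and only Ccl17 kept an unadjusted p under 0.05. Without TN AKO replicate 2, it was -0.59 for Cx3cl1, -0.62 for Ccl22 and -0.82 for Ccl17, and none of the 3 did. In cold the 3 genes overlapped between the labelled genotypes. Ccl22 was at 32.4, 51.9 and 30.5 CPM in cold WT and at 25.1, 30.5 and 51.8 CPM in cold AKO. Ccl17 was at 0.644 to 0.984 CPM in cold WT and at 0.629 to 1.16 CPM in cold AKO, and Cx3cl1 at 9.08 to 13.9 CPM and at 11.9 to 13.8 CPM, with log2 fold changes of -0.09, -0.04 and 0.05. Dendritic cell markers summed to 104 to 179 CPM in TN WT and to 94.2 to 137 CPM in TN AKO, 5 of 6 had lower fitted values in TN AKO, none was at 0 in all libraries, and their part was not tested. Ccl25 was higher in TN AKO than in TN WT by 0.49 (SE 0.189).

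The remaining tested members were neither called nor under an unadjusted p of 0.05 between genotypes. Ccl11 (eotaxin-1) and Ccl24 (eotaxin-2), the ligands of CCR3 on eosinophils, were at 21.3 to 35.3 and at 3.66 to 12.6 CPM over the 12 mice, and their log2 fold changes between groups ranged from -0.13 to 0.42. Ccl20, the only ligand of CCR6, ranged from 0.0805 to 1.89 CPM, with the lowest value in cold WT replicate 3 and the highest in cold AKO replicate 2. Ccl27a and Ccl28, epithelial ligands of CCR10, were at 3.08 to 7.21 and at 0.141 to 0.823 CPM. Ccl28 differed by 1.5 (SE 0.538) between cold and TN in mice labelled AKO with an adjusted p of 0.0586 by edgeR, and 45% of the windows of Ccl27a occurred in other genes. Cxcl14, Cxcl16 and Pf4 (platelet factor 4) were at 12.9 to 53.0, 27.6 to 66.3 and 14.9 to 25.7 CPM, and Ccl3 and Ccl4 at 0.402 to 1.41 and at 0.362 to 1.20 CPM. The highest Cxcl14 value, 53.0 CPM, was again in TN WT replicate 3, and 16.9% of the windows of Cxcl16 lay in an overlapping gene, Zmynd15. Ppbp, a platelet chemokine outside the symbol rule, ranged from 0.281 to 3.08 CPM, and which cells gave the Pf4 counts was not tested.

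**Figure D5:**
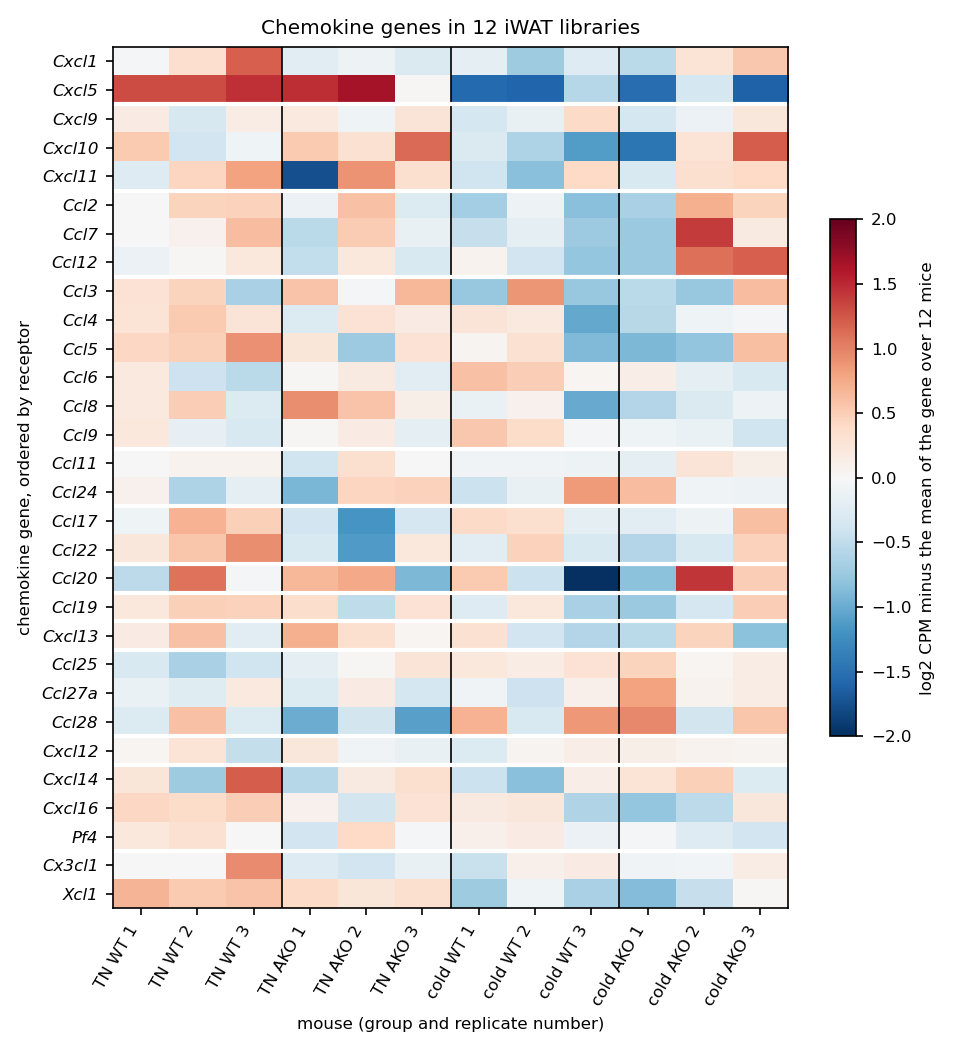
Log2 CPM of the 30 tested chemokine genes in each of 12 mice, minus the mean of the gene over the 12 mice, with genes ordered by receptor and white lines between receptor classes; red is above and blue below the mean. Cxcl5 and Xcl1 separate TN from cold mice, and Ccl2, Ccl7 and Ccl12 are red in cold AKO replicates 2 and 3 and blue in replicate 1.

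The receptors of these ligands were also followed, as a list of 18 genes that were all tested. In WT mice 2 were called lower in cold, Ccr2 (log2 fold change -0.80, SE 0.195, adjusted p = 0.0162) and Cxcr6 (-0.87, SE 0.265, adjusted p = 0.0406), and 1 higher, Ccr10 (1.04, SE 0.289, adjusted p = 0.0279), by edgeR's quasi-likelihood test, while 5.68% of all tested genes were called lower and 15.6% higher. The median log2 fold change was -0.59, against -0.03 over all tested genes, and 17 of 18 fitted values were lower. Ccr2, the receptor of Ccl2, was at 69.1, 76.5 and 47.4 CPM in TN WT and at 40.7, 41.8 and 28.2 CPM in cold WT, with no overlap. Cxcr6, the receptor of Cxcl16, was at 16.1, 17.4 and 21.5 CPM and at 9.35, 12.2 and 8.57 CPM. Ccr10, the receptor of Ccl27a and Ccl28, was at 4.91, 3.02 and 3.34 CPM and at 5.82, 6.62 and 10.8 CPM. In mice labelled AKO 2 were called lower in cold, Cxcr5, the receptor of Cxcl13 on B cells (-0.84, SE 0.253, adjusted p = 0.0335), and Cxcr2, the receptor of Cxcl5 on neutrophils (-1.14, SE 0.372, adjusted p = 0.0434). Of all tested genes 11.5% were called lower there. The receptors had a median of -0.62 in that comparison, with 16 of 18 lower, against -0.05 over all tested genes. B cell markers moved with Cxcr5, since 5 of 8 were called lower in cold in mice labelled AKO and 3 of 8 in WT, with sums of 1180 to 1880 CPM in TN AKO, 622 to 983 CPM in cold AKO, 1150 to 1910 CPM in TN WT and 560 to 1030 CPM in cold WT, and their part was not tested.

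Among 5 atypical receptors, which bind chemokines without signalling through G proteins, 1 was called higher in cold in mice labelled AKO. In that comparison 15.6% of all tested genes were called higher. The receptor called was Cxcr7 (now Ackr3), which takes up Cxcl12. It was at 36.2, 69.3 and 56.7 CPM in TN AKO and at 97.9, 109 and 97.2 CPM in cold AKO, with no overlap and a log2 fold change of 0.91 (SE 0.19, adjusted p = 0.00748 by edgeR). In WT it was at 56.7, 48.2 and 45.2 CPM at TN and at 78.8, 68.4 and 70.3 CPM in cold, with 0.54 (SE 0.19, adjusted p = 0.0653), and the interaction was 0.37 (SE 0.268). Cxcl12 itself differed by 0.06 (SE 0.186) and -0.01 (SE 0.186) between cold and TN in mice labelled AKO and WT.

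Upstream inducers were followed through 2 further lists. Of 13 tested inflammatory inducers and NF-kB genes, Rel, an NF-kB subunit of lymphoid cells, was called lower in cold in WT (-0.75, SE 0.213, adjusted p = 0.0313) and in mice labelled AKO (-0.82, SE 0.214, adjusted p = 0.0194), with list medians of -0.56 and -0.38. Of 14 tested interferon response genes, those called lower in cold in mice labelled AKO included Stat2 (-0.70, SE 0.158, adjusted p = 0.00988), Irf9 (-0.76, SE 0.173, adjusted p = 0.0105), Oas1a (-1.26, SE 0.308, adjusted p = 0.0144) and Irf7 (-1.20, SE 0.39, adjusted p = 0.0425), by edgeR. Their list median was -0.73 there and -0.31 in WT. Beside both lists, 5.68% of all tested genes were called lower in cold in WT and 11.5% in mice labelled AKO. The medians over all tested genes were -0.03 and -0.05. At TN, 14 of 14 interferon response genes had higher fitted values in mice labelled AKO. Their median was 0.47, against 0.01 over all tested genes, and the edgeR adjusted p of each was 0.999. Of their targets in the family, Cxcl10 was at 18.5, 15.9 and 28.3 CPM in TN AKO and at 18.4, 9.80 and 12.1 CPM in TN WT, a log2 fold change of 0.63 (SE 0.51) with overlap. The other genes of the CXCR3 class, Cxcl9 and Cxcl11, differed by 0.12 (SE 0.209) and -0.19 (SE 0.614), with overlap in each. Ccl19 and Cxcl14, whose promoters also held the interferon-stimulated core, differed by -0.29 (SE 0.32) and -0.42 (SE 0.427), again with overlap.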

How the data were processed

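RNA of whole iWAT was sequenced from 12 mice in 4 groups of 3. The authors deposited whole read counts per gene, without normalization, made with Trim Galore 0.4.4, STAR 2.6.1d and HTSeq 0.13.5 on GRCm38 (mm10), per the submitters' processing notes. The annotation, strand setting and read length are not given in the sources used here, so reads of overlapping genes may be split or lost. The 5 tallies of reads outside genes (21.9 to 27% of the reads listed) were left out, and all columns were mapped to samples (0 unmapped). Groups were taken from the labels.

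Counts were analysed in R 4.3.3 with edgeR 4.0.16 (filterByExpr set to min.count 10 and min.total.count 15, TMM, quasi-likelihood test with 1 factor of 4 groups, Benjamini-Hochberg adjustment over 15306 genes, threshold 0.05). Alternatives used limma 3.58.1 and DESeq2 1.42.0, other filters and scaling, a replicate block, the 2 groups compared alone, and each library left out. CPM used TMM-scaled library sizes and log2 values a prior count of 2. Scripts were tested on simulated data. Nothing in the sources says that the mice of a group came from separate litters, so p-values measure the spread between these 12 samples. At these depths a count of 0 allows up to 3 counts, or 0.0764 to 0.145 CPM, which covers counting error only. Exon lengths, overlaps and shared 50-base windows came from GENCODE M21 on GRCm38, and promoters from RefSeq.

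Every member was named, and values per mouse were given for members called in any comparison, for those with an unadjusted p under 0.05 between genotypes, and for the 5 highest per kilobase of exon. Ccl7, Cxcl10 and the values of neighbouring genes were added after their values were seen. From each list of other genes, up to 5 called genes with the smallest p were named, and 1 of them is not reported here. The members, the lists and the rule were chosen with earlier results of these data known.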

Additional observations from a re-analysis of the deposited data

How the results depend on the processing

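The 24 member fold changes with an unadjusted p under 0.05 by edgeR were refitted under the alternatives, and 0 changed direction. They were picked by that p in the same data, so a change of direction was unlikely from the start. Ccl7, Cxcl10, the receptors, the marker lists and the neighbouring genes were not refitted. With RLE size factors the median over all tested genes between genotypes in cold was 0.002 in place of -0.022. The count of chemokine genes called between cold and TN in WT was 3, and 1 to 3 with 1 library left out (1 without cold WT replicate 3, when only Cxcl5 was called). In mice labelled AKO it was 2, and 1 to 3 with 1 library left out (1 without TN WT replicate 1, TN AKO replicate 1 or 2, cold WT replicate 1 or cold AKO replicate 1, and 3 without cold AKO replicate 2). The genes called changed too. Without cold AKO replicate 2 they were Ccl28, Cxcl13 and Cxcl5. Leaving out cold AKO replicate 3 gave Cxcl5 and Xcl1, and leaving out cold AKO replicate 1 gave only Ccl12. Without any 1 library, the other 3 comparisons gave 0. In mice labelled AKO the count was 1 with no filter on low counts (Cxcl5) and 4 by DESeq2 (Ccl8, Ccl28, Cxcl5 and Xcl1). With only the libraries of the 2 groups it was 1 (Ccl8), where 28 members had enough counts and Cxcl5 and Ccl28 did not. It was 1 without the 2 muscle-rich libraries and 1 without these and TN WT replicate 3 (Ccl12 in both), which were alternatives chosen after seeing the data. Over the tested genes, these 2 alternatives called 1514 and 1834 genes in that comparison, against 4138, and the comparison in WT called 1752 with only its 2 groups against 3259. Leaving out TN WT replicate 1, TN WT replicate 2 or cold WT replicate 3 gave 1810, 1381 and 1469 in WT, and leaving out TN AKO replicate 1, TN AKO replicate 3 or cold AKO replicate 1 gave 1735, 2450 and 1613 in mice labelled AKO. Between genotypes in cold, the study used looser thresholds (p below 0.15 before adjustment, with more than 0.2 of log2 change either way) on DESeq2 results. Here they were applied to the edgeR fit of all 12 libraries. With them 7 members passed, as did 1374 of all tested genes, and 0 members were called in every other alternative. In cold DESeq2 called 7 genes of all tested, and at TN 8, against 1 by edgeR and 2 by limma voom in each, and DESeq2 on the 6 cold libraries alone, also chosen after seeing the data, called 12. Cxcl5 in WT was called in all 20 alternatives that could be fitted for it (adjusted p 0.000588 to 0.0298 by edgeR, DESeq2 or voom), and the filter with a minimum count of 50 removed it. Wherever low counts were filtered, Cxcl5 entered only through the TN groups, where it was high, so the agreement of these fits is no separate support. The 5 highest members were the same 5 without length scaling.

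Replicate numbers were treated as names of the samples. Of 18 same-numbered pairs, 5 had deviations correlated above 0.1 (range -0.43 to 0.39). Pairs with different numbers were not compared, so whether the numbers mark a batch was not tested. A replicate block gave 5 calls in WT (Ccl6, Ccl9, Ccl25, Cxcl5 and Xcl1), 2 in mice labelled AKO and 0 in the other comparisons. Cxcl5 had 1 to 5 reads in each cold library, so its cold level is imprecise.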
